A study of Mus musculus with 6 samples.

Results

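The proteasome genes described here are the 50 protein-coding mouse genes of GENCODE vM21 (GRCm38, the assembly that mm10 denotes) whose symbols start with Psma, Psmb, Psmc, Psmd, Psme, Psmf or Psmg, out of 22028 protein-coding and 55536 annotated genes. They were taken from the annotation by symbol, with no use of measured values. Of these genes, 45 are constitutive components or partners of the proteasome, 3 are the inducible immunoproteasome subunits Psmb8, Psmb9 and Psmb10, 1 is the thymic subunit Psmb11, and 1, Psmc3ip, is a recombination protein that only shares the prefix. They were measured by sequencing of poly-adenylated RNA from dissected ventral parts of lumbar spinal cords, taken from mice 5 weeks old on the C57BL/6 background, in 3 Gde2KO libraries and 3 wild-type (WT) libraries. Gde2KO mice carry a knockout of Gdpd5, the gene of the membrane enzyme GDE2, which cuts glycosylphosphatidylinositol anchors; the labels give neither the allele nor the sex of the animals. The series title sets these mice in a study of neuronal Wnt signalling and oligodendrocyte maturation.

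The proteasome is the barrel-shaped protease that degrades ubiquitin-tagged proteins in the cytosol and nucleus. Its core particle stacks rings of alpha subunits, which form the gate, around rings of beta subunits, 3 of which carry the active sites (Psmb5, Psmb6 and Psmb7), and the regulatory particle at its ends binds the ubiquitin tag, removes it and threads the unfolded substrate inside with a ring of ATPases. Interferon induces the alternative catalytic subunits Psmb8, Psmb9 and Psmb10, which take the places of Psmb5, Psmb6 and Psmb7 and change the peptides made for antigen presentation; in nervous tissue these are known mainly from microglia and inflamed tissue, whereas healthy neurons carry mainly the constitutive form.

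Levels are given in FPKM, fragments scaled to transcript length and library size, as the authors assembled them, summed over the transcripts at each base of a gene and scaled between libraries. The FPKM scale is per length, so levels may be set beside each other between genes. Gdpd5 was assembled at 1.25, 1.20 and 0.952 FPKM in the Gde2KO libraries, against 5.41, 6.58 and 5.99 FPKM in the WT libraries, so it was lower in every Gde2KO library. Markers of neurons, motor neurons, oligodendrocytes, astrocytes and microglia were present in all 6 libraries. The Gde2KO replicate 3 library stood apart: its log2 levels scattered around the WT mean with a robust SD of 0.266 over the 12894 genes tested, against 0.144 to 0.151 in the other Gde2KO libraries and at most 0.114 in the WT libraries. The same held for the 43 constitutive proteasome genes tested, with 0.282 in Gde2KO replicate 3, against 0.0909 and 0.0921 in the other Gde2KO libraries and 0.0585 to 0.0794 in the WT libraries. Each WT library is part of the WT mean and each Gde2KO library is not, which by itself narrows the WT scatter. Scatter can therefore be compared among the Gde2KO libraries, but not between Gde2KO and WT libraries. Differences set by Gde2KO replicate 3 are also given without it. The tissue is a mixture of cells, so fewer cells of a type and less RNA per cell cannot be told apart, and nothing in the labels says how animals map to libraries, so p-values measure only the spread between these libraries.

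The promoters of the catalytic subunits are shown first, because here an active site exists in a constitutive and an inducible version whose levels in this tissue were several-fold apart. Each line gives the 250 bases before a RefSeq start site (GRCm38.p6), on the strand of the gene, 5′ to 3′. Capitals mark matches on either strand to 4 short motifs: the antioxidant response element core TGANNNNGC, the CCAAT box, the nuclear respiratory factor half-site GCATGCGC and the STAT core TTCNNNGAA. The lines stand in pairs, the inducible gene first, apart from Psmb10, whose constitutive counterpart Psmb7 has no entry in the promoter table.
Psmb8 promoter, chr17:34197945-34198194, plus strand: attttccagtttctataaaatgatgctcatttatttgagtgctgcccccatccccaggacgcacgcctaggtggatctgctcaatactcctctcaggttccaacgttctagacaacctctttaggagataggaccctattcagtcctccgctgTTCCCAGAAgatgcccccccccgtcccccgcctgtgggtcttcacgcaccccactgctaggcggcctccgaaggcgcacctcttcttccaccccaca
Psmb5 promoter, chr14:54617996-54618245, minus strand: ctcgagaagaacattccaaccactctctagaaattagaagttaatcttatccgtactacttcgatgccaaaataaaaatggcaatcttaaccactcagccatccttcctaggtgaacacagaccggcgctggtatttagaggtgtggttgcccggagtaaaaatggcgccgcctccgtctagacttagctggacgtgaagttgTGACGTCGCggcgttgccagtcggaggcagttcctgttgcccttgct
Psmb9 promoter, chr17:34187331-34187580, minus strand: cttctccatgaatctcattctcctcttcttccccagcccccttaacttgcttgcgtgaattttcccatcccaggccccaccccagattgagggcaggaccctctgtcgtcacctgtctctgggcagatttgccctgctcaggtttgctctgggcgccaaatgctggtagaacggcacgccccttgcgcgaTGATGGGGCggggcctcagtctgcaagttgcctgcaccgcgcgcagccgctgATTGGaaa
Psmb6 promoter, chr11:70525107-70525356, plus strand: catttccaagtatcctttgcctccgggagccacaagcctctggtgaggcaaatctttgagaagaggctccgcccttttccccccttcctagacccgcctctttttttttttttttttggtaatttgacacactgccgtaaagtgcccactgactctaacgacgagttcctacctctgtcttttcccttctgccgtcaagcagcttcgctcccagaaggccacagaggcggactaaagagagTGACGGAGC
Psmb10 promoter, chr8:105938393-105938642, minus strand: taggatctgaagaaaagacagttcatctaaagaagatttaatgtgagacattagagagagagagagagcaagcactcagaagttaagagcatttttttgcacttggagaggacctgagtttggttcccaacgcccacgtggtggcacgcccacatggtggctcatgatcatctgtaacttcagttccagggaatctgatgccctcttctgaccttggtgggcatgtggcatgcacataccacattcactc

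The Psmb8 promoter held 1 match, a STAT core at position -97 from the start site, and was the only catalytic promoter of these 5 with that motif. The Psmb9 promoter held an antioxidant response element core at -60 and a CCAAT box, read on the opposite strand, at -8. Its start site lies 226 bases from that of Tap1, the peptide transporter gene on the other strand, so the printed window also covers the start of Tap1. The Psmb5 and Psmb6 promoters each held 1 antioxidant response element core, at -47 and at -9. The Psmb10 window held none of the 4 motifs. Over the 40 constitutive proteasome promoters in the table, the shares with a match were 37.5% for the antioxidant response element core and 2.5% for the STAT core, where 35.2% and 7.0% of all 32851 promoters of this length had one. The CCAAT box was in 12 of the 40, where 33.8% of all promoters had it, and the nuclear respiratory factor half-site in 2 of the 40, where 2.3% did. The 1 constitutive promoter with a STAT core was that of Psmg1, and those with the nuclear respiratory factor half-site were those of Psmc5 and Psma2, of which the Psma2 window held 4 matches. Such matches describe letters in a window and say nothing of binding. The table held promoters of 42 of the 50 genes.

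Most constitutive proteasome genes were among the well-expressed genes of the ventral cord, and no constitutive gene tested passed between genotypes. The 43 constitutive genes tested had a median level of 56.0 FPKM and ranged between 5.03 FPKM (Psme4) and 181 FPKM (Psmc5), where the median of all 12894 genes tested was 7.96 FPKM. In the limma fit over all genes on log2(FPKM + 0.1), 0 of the 45 proteasome genes tested had a Benjamini-Hochberg adjusted p under 0.05, where 15 of all genes tested did (0.116%). Psmc3 was the 1 proteasome gene with an unadjusted p under 0.05, where 504 of all genes had one (3.91%). Their lowest adjusted p was 0.882, and none of the 20 alternative ways of processing the data gave a call among them. Over all genes tested, the median distance from the estimate to the edge of the 95% interval was 0.281 on the log2 scale. That interval is not adjusted for the number of genes, so smaller and also larger differences could be missed with 3 libraries per genotype. The estimate of Psmd4, 0.38, was above that distance and had an adjusted p of 0.882 in limma. Counted as fragments per gene, which does not divide by length, that estimate was 0.004.

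**Figure D1:**
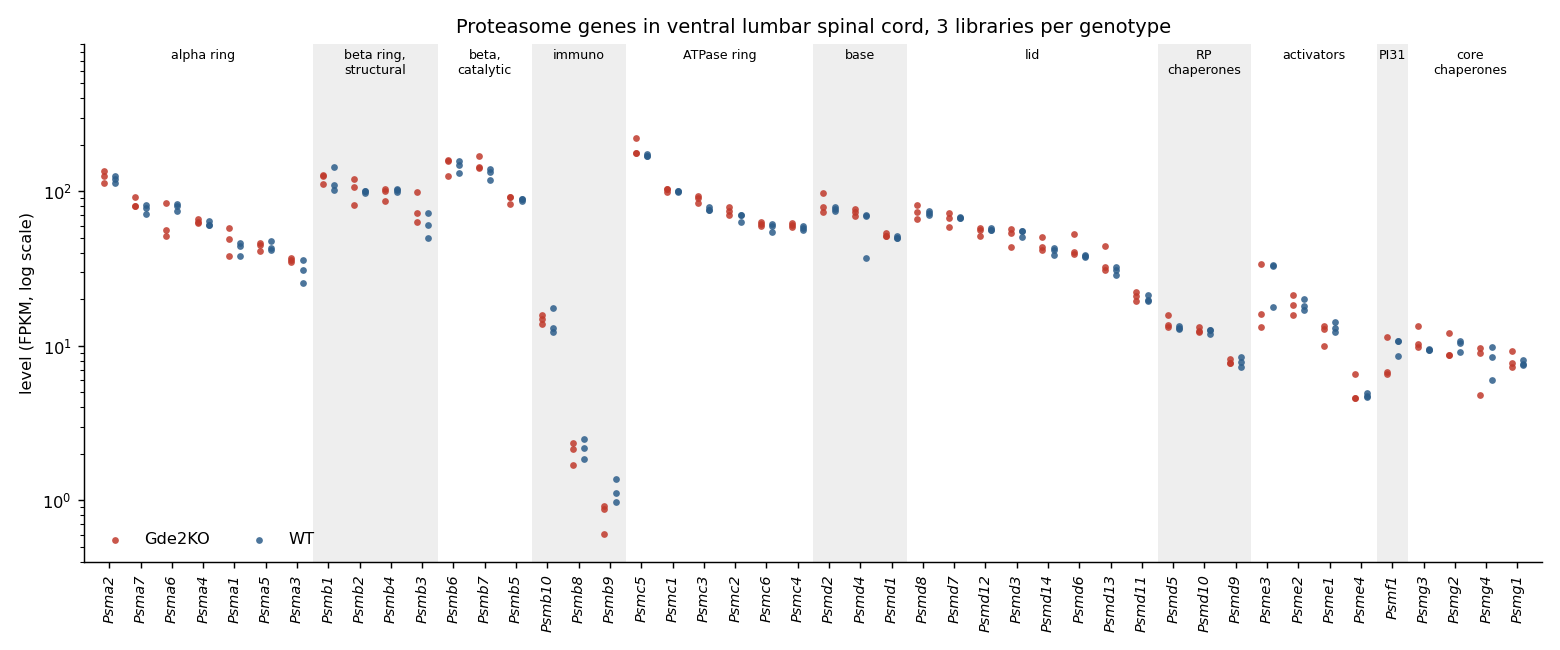
Level of each proteasome gene with an assembled transcript in at least 5 of the 6 libraries, in FPKM on a log scale; each point is a library, with Gde2KO in red on the left and WT in blue on the right of each gene, and genes are grouped by role (RP, regulatory particle; PI31, Psmf1). Core and regulatory particle subunits lie mostly between 20 and 200 FPKM, and the 3 immunoproteasome genes lie below their constitutive counterparts in all 6 libraries.

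Although no gene was called, small differences leaned one way. Of the 43 constitutive genes tested, 32 had a higher and 11 a lower estimate in Gde2KO, their median log2 difference being 0.05 (range -0.48 to 0.38). Over all genes tested, 50.1% were higher and the median was 0.00. Of the 5553 genes with a mean of at least 10 FPKM, 2952 were higher and 2601 lower, with a median of 0.01. With the FPKM left unscaled, the split of the 43 genes was 26 higher and 17 lower. Beside it, 40.0% of all genes were higher, with a median of -0.03. For the 43 genes, 2 other gene levels were also tried. With fragments per gene the split was 37 higher and 6 lower, and with the most abundant transcript 28 higher and 15 lower. Without Gde2KO replicate 3, the split was 30 higher and 13 lower and the median was 0.04. Subunits of 1 complex share libraries and depth and are not independent, so this lean is a description with no test. Each library's median over the 43 genes, taken from the mean of the WT libraries, was 0.041, 0.060 and 0.105 in the Gde2KO libraries, against -0.001, -0.012 and 0.024 in the WT libraries. The Gde2KO medians were thus all above the WT medians, with the highest in the library of widest scatter, Gde2KO replicate 3. Levels of the 43 genes ranked much alike everywhere, with Pearson correlations of log2 levels between any pair of libraries of 0.961 to 0.995 across genes, which are not independent replicates.

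**Figure D2:**
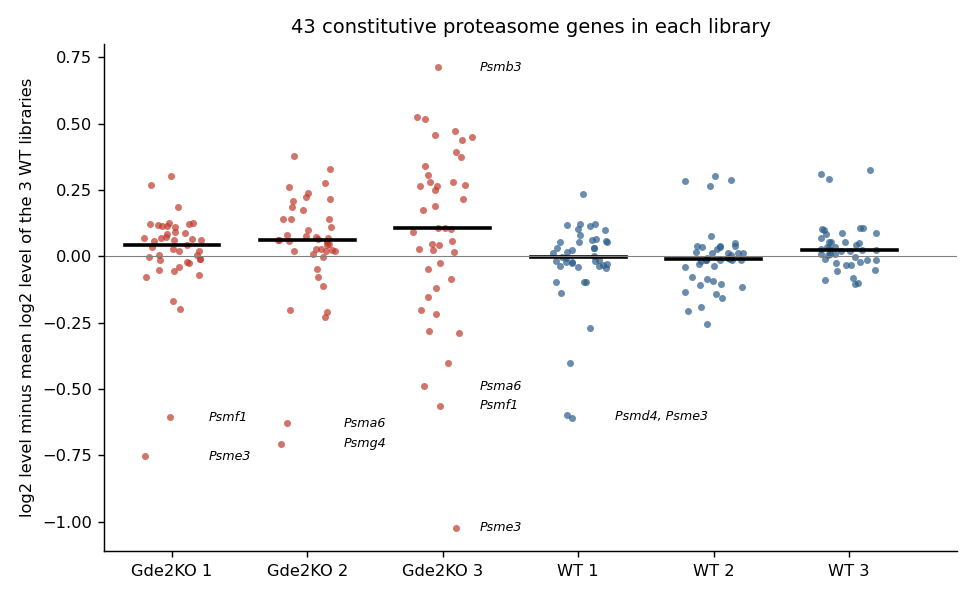
Log2 level of each of the 43 constitutive proteasome genes tested (points) in each library, minus the mean log2 level of that gene in the 3 WT libraries, with the library's median as a black bar; Gde2KO libraries are red and WT libraries blue. The medians lie within 0.105 of 0, and the points of Gde2KO replicate 3 are spread the widest. The WT libraries are part of the mean that is subtracted, which by itself narrows the spread of their points.

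In the core particle, the alpha ring, whose subunits form the gate and the outer wall, had a median level of 63.0 FPKM over 7 genes, 5 of them higher and 2 lower in Gde2KO. Psma2 had the highest level of the ring, with 114, 125 and 135 FPKM in Gde2KO libraries, against 121, 113 and 126 FPKM in WT libraries, which overlapped (1.04-fold, 95% interval 0.892 to 1.21, adjusted p = 0.902). Psma3, the lowest, had 36.9, 36.1 and 34.9 FPKM in Gde2KO libraries, against 36.0, 25.6 and 31.0 FPKM in WT libraries (1.18-fold, 0.940 to 1.47, adjusted p = 0.882). Its groups overlapped by WT replicate 1, only 51.4% of its counted bases were assembled in Gde2KO replicate 3, and a processed pseudogene, Gm13835, matches it at 100% over 665 bases, so its reads may be split. As fragments per gene, the log2 difference of Psma3 was 0.01 rather than 0.23. Psma6 had 84.0, 51.2 and 56.4 FPKM in Gde2KO libraries, against 82.7, 74.1 and 80.9 FPKM in WT libraries (0.787-fold, 0.564 to 1.10, adjusted p = 0.882). The low libraries were Gde2KO replicates 2 and 3, in which the assembled transcript began further upstream and was 1580 and 1705 bases long, against 1059 bases in Gde2KO replicate 1 and 1000 to 1049 bases in the WT libraries. Counted as fragments per gene, which does not divide by length, the difference of Psma6 was 0.08 on the log2 scale rather than -0.34. Psma8, an alpha subunit known from testis, was listed at 0 in all 6 libraries.

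The structural beta subunits, which carry no active site, ranged from 69.8 FPKM (Psmb3) to 120 FPKM (Psmb1), and 3 of 4 were higher in Gde2KO. Psmb1 had 127, 111 and 125 FPKM in Gde2KO libraries, against 110, 102 and 143 FPKM in WT libraries (1.03-fold, 0.804 to 1.32, adjusted p = 0.958). Psmb3 had 63.5, 72.5 and 99.2 FPKM in Gde2KO libraries, against 50.1, 72.7 and 60.7 FPKM in WT libraries (1.27-fold, 0.885 to 1.83, adjusted p = 0.882). The 99.2 FPKM of Psmb3 in Gde2KO replicate 3 lay apart from the other 5 values, which overlapped between genotypes. Psmb3 also has 7 near-identical pseudogene copies of at least 90% identity, of which Gm4950 was itself assembled at 11.1 FPKM.

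The constitutive catalytic subunits were abundant and, for Psmb5 and Psmb6, at nearly the same mean in both genotypes. Psmb5, which carries the chymotrypsin-like site, had 92.1, 92.0 and 83.3 FPKM in Gde2KO libraries, against 89.2, 89.1 and 86.9 FPKM in WT libraries (1.01-fold, 0.897 to 1.13, adjusted p = 0.982). Psmb6, with the caspase-like site, had 158, 160.3 and 125 FPKM in Gde2KO libraries, against 156, 132 and 149 FPKM in WT libraries (1.01-fold, 0.811 to 1.25, adjusted p = 0.990). Both sets overlapped, with the lowest value of each gene in Gde2KO replicate 3. Psmb7, with the trypsin-like site, had 141, 143 and 170.1 FPKM in Gde2KO libraries, against 118, 133 and 139 FPKM in WT libraries (1.16-fold, 0.963 to 1.41, adjusted p = 0.882). The Psmb7 groups did not overlap, though the lowest Gde2KO value and the highest WT value lay within 2 FPKM, and without Gde2KO replicate 3 the log2 difference was 0.13, against 0.22 with it.

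Among the 45 genes tested, 5 had all Gde2KO values above all WT values, where 652 of all genes tested did (5.06%). Those with all Gde2KO values below numbered 0, where 747 of all genes did (5.79%). Of the 5553 genes with a mean of at least 10 FPKM, 337 lay above and 261 below. Besides Psmb7, the proteasome genes above WT were the ATPases Psmc3 and Psmc5, the lid subunit Psmd6 and the core assembly chaperone Psmg3. Without Gde2KO replicate 3 their log2 differences were 0.17 for Psmc3, 0.06 for Psmc5, 0.06 for Psmd6 and 0.09 for Psmg3. As fragments per gene, the groups of Psmc3 and Psmc5 overlapped, while those of Psmb7, Psmd6 and Psmg3 did not. More widely, 20 proteasome genes had a difference of at least 0.1 in size on the log2 scale with all libraries, and without Gde2KO replicate 3 that of 15 of them moved by over 1.5 times, 2 of these to the other sign. The 2 were Psmd2, at -0.01 without the library against 0.11 with it, and Psme4, at -0.05 against 0.12. Of the others, Psmb3 lay at 0.17 without it against 0.35 with it, Psmd13 at 0.05 against 0.21, Psmd14 at 0.06 against 0.14 and Psmd5 at 0.04 against 0.12. Among the genes with lower estimates, Psme3 lay at -0.21 without it against -0.48 with it, and Psme1 at -0.01 against -0.14.

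**Figure D3:**
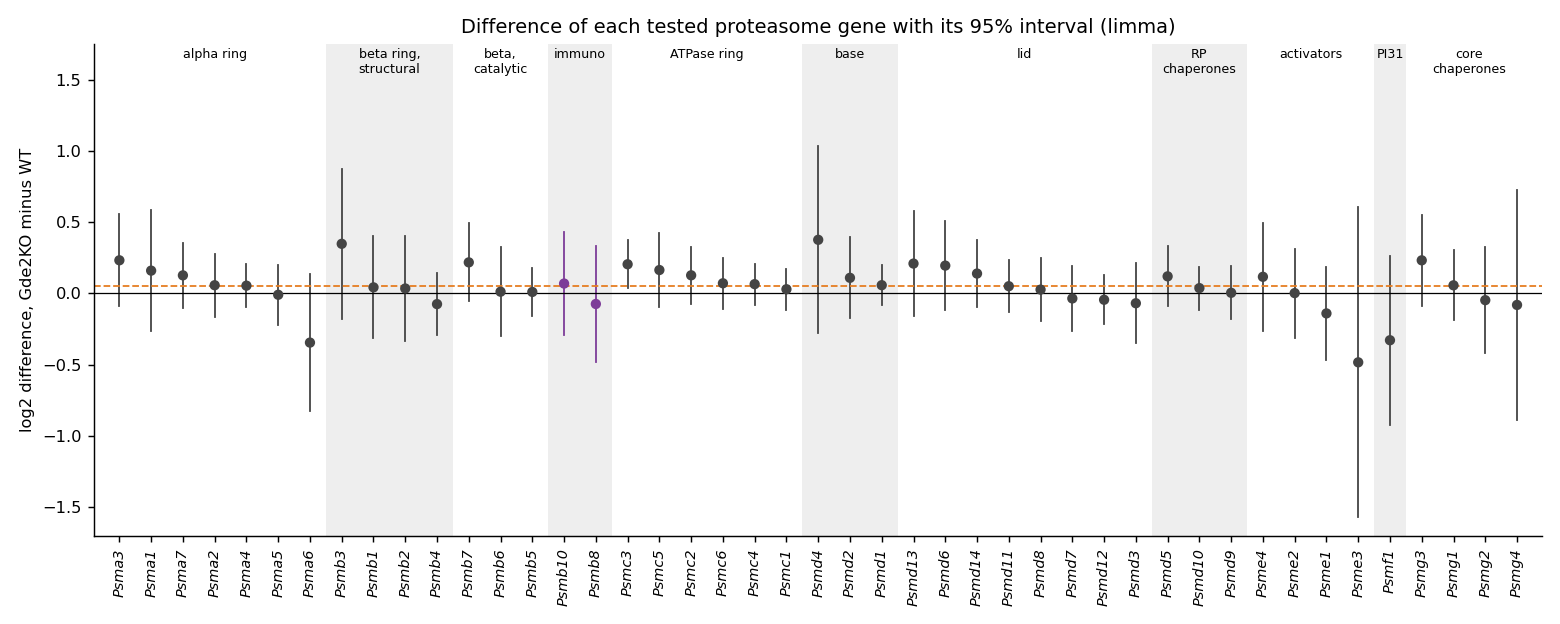
Log2 difference, Gde2KO minus WT, of each of the 45 proteasome genes tested (points) with its 95% interval from the limma fit (lines), grouped by role; purple marks the 2 immunoproteasome genes tested and the dashed line the constitutive median of 0.05. The intervals all include 0 except that of Psmc3.

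The 6 ATPases, which form the ring that unfolds substrates and opens the gate, all had higher estimates in Gde2KO, their median log2 difference being 0.10, at a median level of 77.1 FPKM. They also varied the least of the larger groups, with a median residual SD of 0.068 on the log2 scale, against 0.141 over all genes tested. Psmc3 had 83.7, 90.005 and 92.8 FPKM in Gde2KO libraries, against 76.1, 79.6 and 75.3 FPKM in WT libraries. Its groups did not overlap, and the limma fit gave 1.15-fold (1.03 to 1.29) with an adjusted p of 0.882. Counted as fragments per gene, the groups of Psmc3 overlapped and its log2 difference was 0.09 rather than 0.20. Psmc5, the most abundant proteasome mRNA, had 177, 178 and 221 FPKM in Gde2KO libraries, against 174, 169 and 169 FPKM in WT libraries (1.12-fold, 0.934 to 1.34, adjusted p = 0.882). The first of these Gde2KO values lies within 4 FPKM of the highest WT value, and Gde2KO replicate 3 sets most of the difference. Psmc2 had 74.2, 78.9 and 69.9 FPKM in Gde2KO libraries, against 70.6, 63.1 and 70.5 FPKM in WT libraries, which overlapped (1.09-fold, 0.951 to 1.26, adjusted p = 0.882). Psmc4, the lowest of the ring, had 60.8, 58.7 and 62.1 FPKM in Gde2KO libraries, against 57.5, 59.5 and 56.5 FPKM in WT libraries (1.05-fold, 0.947 to 1.16, adjusted p = 0.882). Psmc1 and Psmc6 differed by 0.03 and 0.07 on the log2 scale.

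In the base, Psmd1 and Psmd2 are the large scaffolds that dock ubiquitin receptors and shuttle factors, and Psmd4 is a ubiquitin receptor itself. Psmd2 had 74.1, 79.0 and 97.3 FPKM in Gde2KO libraries, against 74.5, 76.5 and 79.6 FPKM in WT libraries (1.08-fold, 0.886 to 1.31, adjusted p = 0.884). Psmd1 had 51.6, 51.1 and 54.0 FPKM in Gde2KO libraries, against 51.2, 49.6 and 49.7 FPKM in WT libraries (1.04-fold, 0.945 to 1.15, adjusted p = 0.882). Both overlapped between genotypes, and only Gde2KO replicate 3 stood above the rest for Psmd2. Psmd4 had 69.8, 73.4 and 77.3 FPKM in Gde2KO libraries, against 37.1, 68.9 and 70.8 FPKM in WT libraries (1.30-fold, 0.825 to 2.04, adjusted p = 0.882). The 1 low value, in WT replicate 1, went with assembled transcripts of 2213 to 4279 bases that ran past the annotated gene end, against 1238 to 1310 bases in the other 5 libraries. As fragments per gene, the log2 difference of Psmd4 was 0.004 rather than 0.38.

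The lid, which includes the deubiquitinase that removes the tag, had a median level of 47.9 FPKM over 8 genes, 5 higher and 3 lower. Psmd14, the deubiquitinase, had 43.7, 41.5 and 50.8 FPKM in Gde2KO libraries, against 42.7, 38.8 and 41.5 FPKM in WT libraries, which overlapped (1.10-fold, 0.937 to 1.29, adjusted p = 0.882). Psmd6 had 39.1, 40.3 and 53.0 FPKM in Gde2KO libraries, against 37.6, 38.9 and 38.1 FPKM in WT libraries (1.14-fold, 0.921 to 1.42, adjusted p = 0.882). All 3 Gde2KO values of Psmd6 lay above the WT values, the lowest of them by less than 1 FPKM. Psmd8, the highest of the lid, had 73.7, 81.7 and 66.6 FPKM in Gde2KO libraries, against 70.4, 72.5 and 74.1 FPKM in WT libraries (1.02-fold, 0.873 to 1.19, adjusted p = 0.958). Psmd11, the lowest, had 21.0, 22.2 and 19.4 FPKM in Gde2KO libraries, against 19.8, 21.2 and 19.4 FPKM in WT libraries (1.04-fold, 0.912 to 1.18, adjusted p = 0.895). The lid thus spanned more than 3-fold in level, wider than its differences between genotypes, which ran from -0.07 (Psmd3) to 0.21 (Psmd13) on the log2 scale.

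The assembly chaperones with Psm symbols, which help build the particles and are not part of the finished complex, were all lower in level than every constitutive core and regulatory particle subunit tested. Those of the regulatory particle had a median of 12.6 FPKM, with Psmd5 highest and Psmd9 lowest. Psmd5 had 13.2, 13.6 and 15.9 FPKM in Gde2KO libraries, against 12.8, 13.4 and 13.0 FPKM in WT libraries (1.09-fold, 0.940 to 1.26, adjusted p = 0.882). Psmd9 had 7.70, 8.23 and 7.71 FPKM in Gde2KO libraries, against 7.33, 7.80 and 8.46 FPKM in WT libraries (1.003-fold, 0.882 to 1.14, adjusted p = 0.993). Both overlapped between genotypes, and 48.8% of the counted bases of Psmd9 were assembled in Gde2KO replicate 3, against at least 98.6% in the other libraries. With other measures of level, the log2 difference of Psmd9 was 1.22 (plain sum of transcripts) or 0.96 (most abundant transcript) rather than 0.00, with adjusted p-values of 0.465 and 0.933 in limma. Those of the core particle, Psmg1 to Psmg4, had a median of 8.97 FPKM. Psmg3 had 10.3, 9.81 and 13.5 FPKM in Gde2KO libraries, against 9.45, 9.36 and 9.49 FPKM in WT libraries (1.17-fold, 0.940 to 1.47, adjusted p = 0.882). Its WT values were tightly grouped and Gde2KO replicate 3 lay well above all others. Psmg1 had 7.34, 7.74 and 9.25 FPKM in Gde2KO libraries, against 7.55, 7.67 and 8.05 FPKM in WT libraries (1.04-fold, 0.877 to 1.23, adjusted p = 0.912).

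The activators are caps that open the core without ubiquitin. Psme1 and Psme2 form the interferon-inducible cap known as PA28, Psme3 forms its nuclear relative and Psme4 encodes the single-chain cap PA200. Psme1 had 12.8, 13.4 and 9.94 FPKM in Gde2KO libraries, against 14.3, 13.0 and 12.3 FPKM in WT libraries (0.908-fold, 0.724 to 1.14, adjusted p = 0.882). Its lowest value, in Gde2KO replicate 3, went with 72.5% of its counted bases assembled. Psme2 had 18.4, 15.8 and 21.3 FPKM in Gde2KO libraries, against 20.0, 18.1 and 17.1 FPKM in WT libraries (1.002-fold, 0.807 to 1.24, adjusted p = 0.998). The single-exon gene Psme2b matches Psme2 at 99.4% over 794 bases and was listed at 0 in Gde2KO replicate 3 and WT replicate 1, with 1.51 and 0.845 FPKM in the other Gde2KO libraries and 2.40 and 0.922 FPKM in the other WT libraries, so its level is uncertain. Psme3, the highest of the caps, had 16.0, 33.9 and 13.2 FPKM in Gde2KO libraries, against 17.8, 33.0 and 33.5 FPKM in WT libraries (0.715-fold, 0.336 to 1.52, adjusted p = 0.882). This was the lowest fold of any proteasome gene tested. The 3 low libraries were those in which the last exon had been assembled only to 50 to 150 bases, against 1657 or 1658 bases in the other 3, in the transcript of highest FPKM, and the assembled share of counted bases there was 38.4% to 48.4%, against 100% in the others. Psme4, the lowest, had 4.602, 4.63 and 6.60 FPKM in Gde2KO libraries, against 4.71, 4.69 and 4.98 FPKM in WT libraries (1.08-fold, 0.834 to 1.41, adjusted p = 0.884). Psmf1, the modulator PI31, had 6.53, 11.4 and 6.72 FPKM in Gde2KO libraries, against 10.7, 8.64 and 10.8 FPKM in WT libraries, which overlapped (0.797-fold, 0.529 to 1.20, adjusted p = 0.882). Counted as fragments per gene, its log2 difference was 0.11 rather than -0.33.

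The immunoproteasome genes stood far below the constitutive genes they replace. Psmb8 (chr17:34197721-34201454) and Psmb9 (chr17:34181987-34187764) are neighbours in the major histocompatibility region, 9956 bases apart, and Psmb10 lies at chr8:105935735-105938444. Psmb10 had 14.9, 15.7 and 13.9 FPKM in Gde2KO libraries, against 17.5, 13.0 and 12.4 FPKM in WT libraries (1.05-fold, 0.817 to 1.35, adjusted p = 0.927). Psmb8 had 1.69, 2.36 and 2.15 FPKM in Gde2KO libraries, against 2.49, 1.85 and 2.18 FPKM in WT libraries (0.950-fold, 0.716 to 1.26, adjusted p = 0.932). Both overlapped between genotypes. Psmb9 had 0.601, 0.874 and 0.914 FPKM in Gde2KO libraries, against 1.11, 0.979 and 1.37 FPKM in WT libraries. All 3 Gde2KO values of Psmb9 lay below the WT values, as for 5.79% of all genes tested, a set that leaves out Psmb9. The closest values were 0.914 FPKM in Gde2KO and 0.979 FPKM in WT. Counted as fragments per gene, the groups of Psmb9 overlapped. Psmb9 fell under the filter of a mean of 1 FPKM and was tested only with that filter removed, where limma gave a log2 difference of -0.49 (adjusted p = 0.884). The median log2 difference over the 3 genes was -0.07.

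Set against the constitutive subunit with the same place in the ring, the inducible mRNA was a small part in both genotypes. Psmb8 stood at 2.33 ± 0.424% of Psmb5 in Gde2KO libraries and 2.46 ± 0.362% in WT libraries (SD, n = 3 each; two-sided exact permutation p = 0.7). Psmb9 stood at 0.553 ± 0.175% of Psmb6 in Gde2KO libraries and 0.791 ± 0.116% in WT libraries (SD, n = 3 each; exact p = 0.2). Psmb10 stood at 9.92 ± 1.53% of Psmb7 in Gde2KO libraries and 11.2 ± 3.24% in WT libraries (SD, n = 3 each; exact p = 0.8). Adjusted over the 3 ratios these exact p-values were 0.8, 0.6 and 0.8, and 3 libraries against 3 cannot go below 0.1. The ratios overlapped between genotypes in all 3 cases. They share libraries with the levels above and are no separate evidence.

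**Figure D4:**
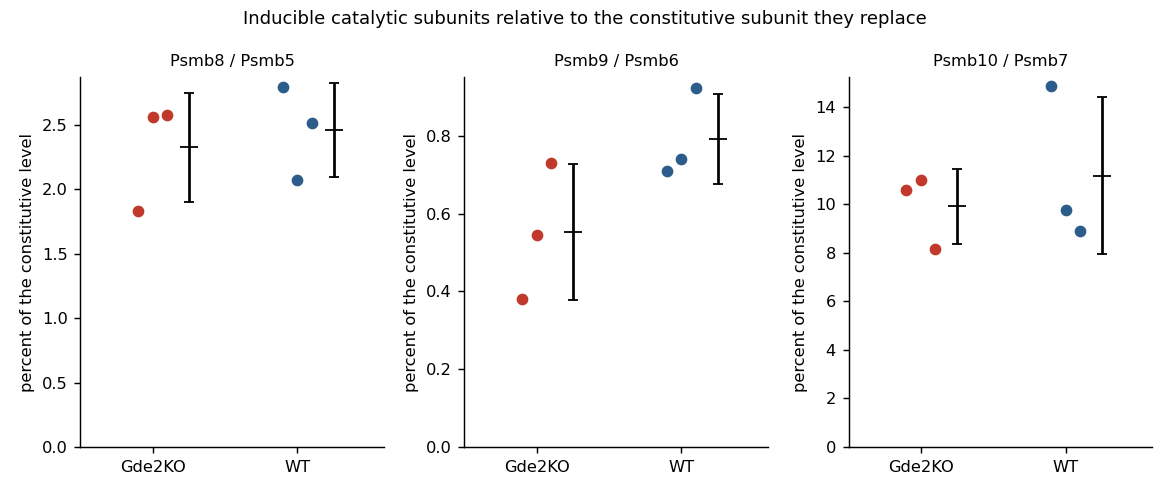
Level of each inducible catalytic subunit as a percentage of the constitutive subunit it replaces; each point is a library (Gde2KO red on the left, WT blue on the right) and the bars give mean ± SD of 3 libraries. Psmb10 lies between 8.16% and 14.9% of Psmb7, whereas Psmb8 stays below 3% of Psmb5 and Psmb9 below 1% of Psmb6 in every library.

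Interferon and antigen presentation genes, which are induced together with the immunoproteasome in many tissues, gave no call either. Of 14 interferon signalling genes tested, 4 had higher and 10 lower estimates in Gde2KO, with a median log2 difference of -0.11, and 0 passed the adjusted threshold in limma, while 1 had an unadjusted p under 0.05. That gene was Ifitm3, an interferon-induced membrane protein, with 18.1, 20.2 and 25.5 FPKM in Gde2KO libraries, against 40.9, 36.1 and 26.3 FPKM in WT libraries (0.623-fold, 0.439 to 0.885, adjusted p = 0.882). The guanylate-binding protein Gbp2 had 1.78, 1.53 and 1.62 FPKM in Gde2KO libraries, against 2.74, 1.87 and 1.84 FPKM in WT libraries. Both sets lay without overlap below WT, as did 3 of the 14 genes in all, where 5.79% of all genes did. The interferon gamma receptor gene Ifngr1 lay the other way, with 11.4, 10.4 and 11.1 FPKM in Gde2KO libraries, against 9.98, 10.2 and 9.99 FPKM in WT libraries. The transcription factor gene Irf1 averaged 1.41 ± 0.239 FPKM in Gde2KO libraries and 1.56 ± 0.351 FPKM in WT libraries (SD, n = 3 each), which overlapped.

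Of 10 antigen presentation genes tested, 4 had higher and 6 lower estimates in Gde2KO, with a median log2 difference of -0.12, and again 0 passed adjustment in limma and 1 had an unadjusted p under 0.05. B2m, the light chain of class I molecules, had 60.9, 55.6 and 42.1 FPKM in Gde2KO libraries, against 73.2, 72.4 and 128 FPKM in WT libraries (0.596-fold, 0.375 to 0.947, adjusted p = 0.882). The peptide transporter gene Tap2 had 3.94, 3.71 and 4.16 FPKM in Gde2KO libraries, against 4.54, 4.39 and 4.28 FPKM in WT libraries (0.896-fold, 0.794 to 1.01, adjusted p = 0.882). These 2 genes and H2-K1 lay without overlap below WT, where 5.79% of all genes did. As fragments per gene, the groups of H2-K1 overlapped, while those of Tap2 did not. Only 52.6% and 59.4% of the counted bases of B2m were assembled in WT replicates 2 and 3, against 100% in the other libraries; as fragments per gene its groups overlapped and its log2 difference was -0.20 rather than -0.75. Tapbp, which loads peptides onto class I molecules, averaged 10.6 ± 2.98 FPKM in Gde2KO libraries and 15.1 ± 2.37 FPKM in WT libraries (SD, n = 3 each), and its groups overlapped. As fragments per gene the direction of Tapbp turned, with a log2 difference of 0.34 rather than -0.54. Tap1, the neighbour that starts beside Psmb9, had 1.001, 0.947 and 1.02 FPKM in Gde2KO libraries, against 1.20, 0.863 and 0.868 FPKM in WT libraries. These values overlapped. The summed level of the 9 microglia markers was 243, 254 and 231 FPKM in Gde2KO libraries, against 237, 224 and 251 FPKM in WT libraries, with 5 of 9 higher. Of the T and NK cell markers, 3 of 4 (Cd3e, Cd3g and Nkg7) were listed at 0 in all libraries, and the list summed to 3.10, 2.40 and 1.85 FPKM in Gde2KO libraries, against 2.62, 4.36 and 2.29 FPKM in WT libraries, all from the fourth marker. The sum of the 4 markers of border macrophages and monocytes was 7.35, 9.27 and 10.8 FPKM in Gde2KO libraries, against 12.3, 8.79 and 13.2 FPKM in WT libraries, with Ccr2 at 0. The 3 meningeal markers all had lower estimates, from -0.60 to -0.36 on the log2 scale, and summed to 28.7, 63.2 and 66.7 FPKM in Gde2KO libraries, against 63.7, 58.8 and 76.3 FPKM in WT libraries. Of the 5 endothelial markers 4 had lower estimates, though their sum was 98.6, 94.4 and 90.9 FPKM in Gde2KO libraries, against 76.5, 96.6 and 89.9 FPKM in WT libraries. Both red blood cell markers tested had lower estimates, and that list summed to 111, 140 and 129 FPKM in Gde2KO libraries, against 198, 146 and 110 FPKM in WT libraries. All these sums overlapped between genotypes. The single endothelial marker with a higher estimate, Ly6c1, lay without overlap above WT, where 5.06% of all genes did. Only 42.8% and 76.9% of its counted bases were assembled in WT replicates 1 and 3. As fragments per gene, the groups of Ly6c1 overlapped. The part of these cells in the values of Psmb9, B2m, Ifitm3 and Gbp2 was not tested.

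The wider ubiquitin and proteasome pathway showed no call in either direction, with 0 of 15 partners, 0 of 4 ubiquitin and E1 genes, 0 of 14 shuttle factor and unfoldase genes and 0 of 17 genes of proteasome gene control passing the adjusted threshold in limma, and 0 of them having an unadjusted p under 0.05. Partners outside the Psm prefixes had 10 higher and 5 lower estimates, with a median log2 difference of 0.03. Uchl5, a deubiquitinase of the regulatory particle, had 29.3, 32.8 and 40.0 FPKM in Gde2KO libraries, against 28.2, 29.9 and 25.9 FPKM in WT libraries (1.21-fold, 0.965 to 1.51, adjusted p = 0.882). Pomp, the maturation factor of the core particle, had 92.3, 105 and 111 FPKM in Gde2KO libraries, against 97.0, 93.1 and 92.8 FPKM in WT libraries (1.09-fold, 0.937 to 1.26, adjusted p = 0.882). Both overlapped between genotypes, and without Gde2KO replicate 3 the log2 differences were 0.15 for Uchl5 and 0.06 for Pomp, against 0.27 and 0.12 with it. Sem1, a small lid subunit, had 17.2, 20.3 and 22.1 FPKM in Gde2KO libraries, against 22.1, 40.7 and 20.2 FPKM in WT libraries, so that its lower mean rested on WT replicate 2. Adrm1, the receptor that docks Uchl5, averaged 33.1 ± 3.53 FPKM in Gde2KO libraries and 34.0 ± 0.614 FPKM in WT libraries (SD, n = 3 each). Usp14, the other deubiquitinase of the particle, averaged 34.9 ± 6.55 FPKM in Gde2KO libraries and 31.9 ± 3.44 FPKM in WT libraries (SD, n = 3 each).

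Nfe2l1 encodes the factor that raises proteasome gene transcription when degradation is blocked. It had 97.0, 96.4 and 39.2 FPKM in Gde2KO libraries, against 97.1, 94.9 and 93.3 FPKM in WT libraries (0.753-fold, 0.396 to 1.43, adjusted p = 0.882). Apart from Gde2KO replicate 3 its values lay within a few FPKM of each other, and without that library the log2 difference was 0.02 rather than -0.41. In Gde2KO replicate 3, 50.7% of its counted bases were assembled, against at least 97.7% in the other libraries. In the list of proteasome gene control, 9 genes had higher and 8 lower estimates, with a median of 0.03. Those of smallest p were Mafk, a small Maf partner of Nfe2l1 (1.24-fold, 0.945 to 1.62, adjusted p = 0.882), Gclm, a glutathione synthesis gene (1.06-fold, 0.951 to 1.18), and Nfyc, a CCAAT-binding factor (0.914-fold, 0.759 to 1.10). Shuttle factors and unfoldase genes split into 6 higher and 8 lower, and the folds of Sqstm1, Nsfl1c and Nploc4 lay between 0.939 and 1.04. Of the ubiquitin and E1 genes, 3 had higher and 1 lower estimates. The ubiquitin fusion gene Rps27a had 238, 270.0 and 350 FPKM in Gde2KO libraries, against 267, 232 and 245 FPKM in WT libraries (1.14-fold, 0.871 to 1.49, adjusted p = 0.882). Without Gde2KO replicate 3 its log2 difference was 0.04, against 0.19 with it. Uba6, an E1 enzyme gene, lay at 1.06-fold. Ubb, a ubiquitin gene in wide use, was listed at 0 in all 6 libraries, so a value of 0 in these files can be a failed assembly rather than absence.

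Assembled transcripts were also set against the annotated splice forms. In each library 67.2% to 83.3% of the transcripts assembled for proteasome genes had an annotated intron chain. Of the 48 genes with an assembled transcript, 34 had an annotated intron chain in all 6 libraries and 21 had exactly 1 transcript in each library. Only Psmd4, Psmd10 and Psmg4 had 2 annotated chains in every library, and the sequences in which these differ are shown because the shares of the forms can be set against genotype. Each line is a coding exon of the GENCODE vM21 transcript named, read on the gene's strand, 5′ to 3′, with capitals for the bases that the other form lacks.
Psmd10-201 exon 4, chrX:140952147-140952313, minus strand: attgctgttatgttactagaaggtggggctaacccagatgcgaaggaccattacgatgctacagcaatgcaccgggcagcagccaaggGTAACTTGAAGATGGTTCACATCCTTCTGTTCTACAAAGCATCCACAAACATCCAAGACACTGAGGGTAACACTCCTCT
Psmd4-201 exon 7, chr3:95033909-95034026, minus strand: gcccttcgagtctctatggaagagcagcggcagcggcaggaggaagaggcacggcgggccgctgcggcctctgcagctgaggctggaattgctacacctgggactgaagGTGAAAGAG
Psmg4-202 exon 2, chr13:34166061-34166136, plus strand: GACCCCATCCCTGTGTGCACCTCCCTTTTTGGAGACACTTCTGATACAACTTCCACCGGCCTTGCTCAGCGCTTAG

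In Psmd10, which encodes gankyrin, a chaperone of the regulatory particle, exon 4 of Psmd10-201 spans chrX:140952147-140952313 and its last 79 bases are skipped in Psmd10-202; in Psmg4, a core particle chaperone, Psmg4-202 has the 76-base exon 2 at chr13:34166061-34166136 that Psmg4-201 lacks. Neither length is a multiple of 3, so the reading frame after the stretch differs. In Psmd4 the last 9 bases of exon 7, at chr3:95033909-95033917, are in Psmd4-201 only, and this length keeps the frame. Psmd10-201 made up 74.1, 75.0 and 70.1% of the pair in Gde2KO libraries, against 78.5, 81.5 and 78.8% in WT libraries. Psmg4-201 made up 35.6, 40.7 and 42.9% of the pair in Gde2KO libraries, against 28.3, 32.2 and 34.5% in WT libraries. In both genes the genotypes did not overlap, with lower shares of the long exon 4 form of Psmd10 and higher shares of the short form of Psmg4 in Gde2KO. How often splice forms of other genes separate in this way was not computed, so these separations have no background to be read against. Psmd4-201 made up 21.6, 20.7 and 29.5% of the pair in Gde2KO libraries, against 43.3, 28.7 and 20.5% in WT libraries, which overlapped. The difference in means was -6.54 points for Psmd10-201 (73.1 ± 2.59% in Gde2KO, 79.6 ± 1.67% in WT), 8.05 points for Psmg4-201 (39.7 ± 3.72% in Gde2KO, 31.7 ± 3.11% in WT) and -6.90 points for Psmd4-201 (SD, n = 3 each). The two-sided exact permutation p-values were 0.1, 0.1 and 0.7, the smallest that 3 against 3 allows being 0.1, and 0.15, 0.15 and 0.7 after adjustment over the 3 genes, so none passed 0.05. These shares come from the assembler's own division of fragments between overlapping forms.

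**Figure D5:**
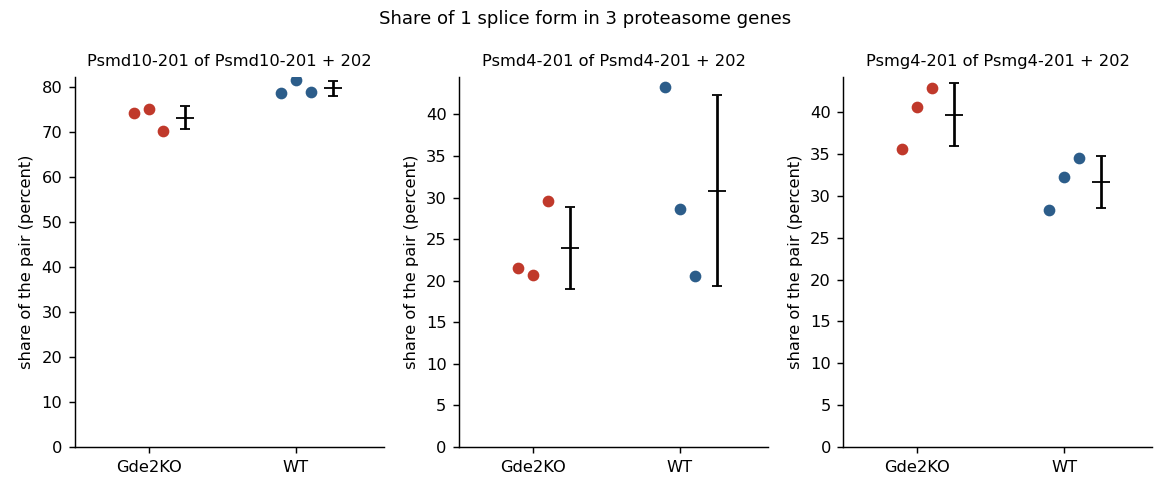
Share of the transcript ending in 201 in the pair of annotated splice forms of Psmd10, Psmd4 and Psmg4, in percent of the pair; each point is a library (Gde2KO red on the left, WT blue on the right) and the bars give mean ± SD of 3 libraries. The genotypes do not overlap for Psmd10 (70.1 to 75.0% in Gde2KO, 78.5 to 81.5% in WT) or Psmg4, and overlap for Psmd4.

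Of the 50 genes, 5 could not be tested. Psma8 and Psmb11, of which Psmb11 is a thymus subunit beside Psmb5 on chromosome 14, had no assembled transcript. Psmb9 and Psme2b lay too low. Psmc3ip, the recombination protein, was listed at 0 in Gde2KO replicate 1 and WT replicate 2, with 1.02 and 1.31 FPKM in the other Gde2KO libraries and 1.26 and 0.978 FPKM in the other WT libraries. Near-identical copies bear on several others: 15 proteasome genes had in all 35 copies elsewhere in the annotation with at least 90% identity over at least 200 bases, 28 of them pseudogenes, and 12 copies had assembled bases of their own. The genes lie on 16 chromosomes, and only 3 pairs of them stand within 50000 bases of each other, Psmb5 and Psmb11, Psme1 and Psme2, and Psmb8 and Psmb9.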

How the data were processed

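RNA from 6 libraries, 3 Gde2KO and 3 WT, was sequenced by the authors, who per the submitters' processing notes used FastQC, TopHat2 2.1.1, Cufflinks 2.2.1 and Cuffdiff 2.2.1 with the mm10 build; options and read depth are not given in the sources used here. The authors deposited 1 Cufflinks assembly per library, with a transcript's FPKM and its bounds beside its exons; these FPKM values are not counts and no count test was made. Strand of the libraries is not stated. From the deposited assemblies, transcripts of at least 200 bases were matched to GENCODE vM21 genes where exons overlapped on 1 strand (transcripts with no assembled strand only at bases without an opposite exon). FPKM was summed at each base assembled in at least 3 libraries, averaged over these counted bases, and scaled by median-of-ratios factors (0.983 to 1.03). A gene with no transcript in a library was given 0.

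Genes with a mean of at least 1 FPKM and 200 counted bases were tested with limma 3.58.1 (R 4.3.3) on log2(FPKM + 0.1), with intensity trend and robust moderation, two-sided, Benjamini-Hochberg adjusted over all 12894 genes, after a test on simulated data; folds on this scale understate changes of low genes. Given with values were the catalytic subunits, the 10 other members of smallest p, the highest and lowest of each role, members listed at 0 or assembled to unequal extent, the 3 genes of smallest p in each pathway list and a set of regulators; a few genes under this rule are not reported here. The splice forms, and Psme2, were described after their values were seen. The members and lists were chosen with earlier results of these data known. Copies were found with BLAST 2.17.0. Alternatives tried were 2 other pseudocounts, 2 other filters, 2 other scalings, 3 other gene levels, strand, length, zero and moderation choices, a replicate block and each library left out.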

Additional observations from a re-analysis of the deposited data

How the results depend on the processing

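No proteasome gene was called under any of the 20 alternatives, and the median over the 3 immunoproteasome genes stayed between -0.18 and 0.06 on the log2 scale. The constitutive median was 0.021 without scaling and 0.12 with a plain sum of transcripts, against 0.05 in the main analysis. The cause was not tested. The number of all genes called, 15, was 4 with a pseudocount of 0.01, 1 with a mean of at least 5 FPKM, 9 with fragments per gene, 4 with zeros as missing, and between 10 and 26 with a library left out, lowest without WT replicate 1 and highest without WT replicate 2. With the replicate block it was 2. The labels give same-numbered libraries a shared number and do not say whether they were paired. Their deviations from the group means correlated at 0.011, 0.036 and -0.067, and the replicate block called no proteasome gene. Such correlations cannot show that no pairing exists. Chosen after seeing the data, the share of Psmd4-201 among all transcripts of the gene was 5.14 points higher in Gde2KO, where within the pair it was -6.90 points; WT replicate 1 also has unannotated forms, and without it the difference was -0.68 points. Depth is unknown, so no counting interval could be given, and genes near 1 FPKM such as Psmb9 are the least certain.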
